A study of Mus musculus with 28 samples.

Results

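The vascular endothelial growth factor (VEGF) family was examined in sorted cells of mouse bone marrow through 9 genes, chosen by symbol from the 25251 genes that were measured. They were 4 ligands (Vegfa, Vegfb, Vegfc and Pgf), 3 receptors (Kdr, Flt1 and Flt4) and 2 neuropilins (Nrp1 and Nrp2), and each was found under its own symbol. RNA had been sequenced from endothelial cells (ECs; CD45-Ter119-CD31+), from mesenchymal stromal cells (MSCs; CD45-Ter119-CD31-CD166-Sca1+), which like the ECs were sorted from collagenase-digested bone, and from bone marrow mononuclear cells (MNCs). The mice were C57 BL6 with unaltered Flt3 (Flt3 +/+) or C57 BL6 carrying 2 copies of the Flt3-ITD knock-in (Flt3 ITD/ITD). They were aged 8 to 10 wk. Each genotype gave 5 EC, 5 MSC and 4 MNC libraries, 28 in all, and whether the populations shared mice is not stated. Each library held 100 ECs or MSCs or 200 MNCs of 1 mouse. The knock-in places an internal tandem duplication in the hematopoietic receptor gene Flt3 from the germ line, so every cell of these mice carries it, and they develop a myeloproliferative disease. The study asked whether that disease disturbs the nonhematopoietic cells around the stem cells.

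VEGF ligands are secreted dimers that bind receptor tyrosine kinases on the vessel wall. VEGF-A signals mainly through VEGFR2, the product of Kdr, while VEGFR1, the product of Flt1, binds VEGF-A, VEGF-B and placental growth factor tightly and signals weakly, so that it also acts as a decoy. VEGF-C and VEGF-D, the latter the product of Figf, bind VEGFR3, the product of Flt4. Neuropilins are co-receptors that hold VEGFs and class 3 semaphorins at the cell surface. In bone marrow, VEGFR2 and VEGFR3 are known as receptors of the sinusoids, and signaling through them is needed for these vessels to regrow after injury.

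Levels are given as RPKM, reads scaled to transcript length and to library size, so levels of different genes can be compared. Total counts ranged from 6377013 to 33880743 per library. A sum of 3 counts over a group served as the floor, and floors and intervals cover counting error alone, since copies made by amplification were not told apart. The sorted populations carried their defining markers. Cdh5, the gene of VE-cadherin, lay between 165 and 252 RPKM in all 10 EC libraries and at most at 0.19 in MSCs, and Pdgfra lay between 61.4 and 107 in MSCs and at most at 1.82 in ECs. Ptprc, the gene of CD45, was at most 0.05 RPKM in ECs and 0.12 in MSCs except in 2 libraries, Flt3 ITD/ITD EC replicate 2 (4.57) and Flt3 ITD/ITD MSC replicate 5 (0.53). The 8 neutrophil markers summed to 29488 RPKM in the first of these and 6034 in the second. They summed to 1295 in Flt3 +/+ EC replicate 1, which also had the highest erythroid sum of the ECs (2385), and to at most 454 in every other EC or MSC library. The part of these markers in the values of the members was not tested beyond leaving out each library. Flt3 itself was at 2.53 to 14.8 RPKM in MNCs, and its highest value was 1.37 in ECs and 0.22 in MSCs. Gene counts cannot show the duplication. The MNCs held RNA of many cell types, and in such samples fewer cells of a type and less RNA per cell cannot be told apart. Their summed erythroid markers (4 of 7 listed genes were measured) spanned 50.1 to 80960 RPKM in Flt3 +/+ mice, against 1213 to 11739 with the knock-in. The 8 neutrophil markers summed to 159860 to 193293 RPKM in Flt3 +/+ MNCs. In Flt3 ITD/ITD MNCs they summed to 174315, 151222, 42798 and 57915 in replicates 1 to 4. The part of these sums in the MNC values of the members was not tested beyond leaving out each library. Prox1, a defining gene of lymphatic endothelium, was at most 0.34 RPKM in any library.

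The 3 receptor genes were high in ECs alone, and their promoters are shown here because these genes shared that pattern. Each sequence runs from 250 bases before to 50 bases after the RefSeq start, on the strand of the gene, in the GRCm38.p6 assembly. The windows are chr5:75978406-75978705 on the minus strand for Kdr, chr5:147725962-147726261 on the minus strand for Flt1 and chr11:49609429-49609728 on the plus strand for Flt4. Capitals mark GGAA and its complement TTCC, the core that ETS transcription factors bind, which many endothelial genes use.
Kdr: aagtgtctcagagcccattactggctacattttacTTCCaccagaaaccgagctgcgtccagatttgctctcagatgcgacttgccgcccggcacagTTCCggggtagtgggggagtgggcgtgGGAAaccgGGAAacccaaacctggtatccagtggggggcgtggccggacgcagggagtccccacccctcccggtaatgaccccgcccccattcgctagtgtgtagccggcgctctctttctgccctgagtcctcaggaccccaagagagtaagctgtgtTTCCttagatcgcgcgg
Flt1: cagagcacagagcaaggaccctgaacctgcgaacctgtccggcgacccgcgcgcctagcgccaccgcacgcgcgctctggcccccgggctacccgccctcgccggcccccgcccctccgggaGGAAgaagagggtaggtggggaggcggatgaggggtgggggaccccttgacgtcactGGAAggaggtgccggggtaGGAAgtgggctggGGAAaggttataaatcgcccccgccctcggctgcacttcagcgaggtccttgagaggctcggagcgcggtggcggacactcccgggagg
Flt4: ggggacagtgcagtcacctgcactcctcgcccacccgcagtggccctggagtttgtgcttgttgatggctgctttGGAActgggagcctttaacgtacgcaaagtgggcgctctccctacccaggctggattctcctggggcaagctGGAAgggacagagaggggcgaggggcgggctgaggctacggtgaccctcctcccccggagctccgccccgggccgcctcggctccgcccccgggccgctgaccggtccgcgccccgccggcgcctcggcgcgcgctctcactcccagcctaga
On either strand, the core occurred 5 times in the Kdr window, 4 times in that of Flt1, always as GGAA, and 2 times in that of Flt4. It is a common run of letters, since 96.0% of 32851 RefSeq windows of this length held it, with a median of 3 matches. GC boxes (GGGCGG on either strand) numbered 2, 3 and 3, against 35.7% of all windows with at least 1. A TATA box (TATAAA) was found in the Flt1 window only of the 11 windows of the 9 genes, and in 13.6% of all windows. The hypoxia response core ACGTG, in 19.6% of all windows, was absent from these 3, and its other form GCGTG, in 32.4% of all windows, occurred 2 times in the Kdr window, once in that of Flt1 and not in that of Flt4. GCGTG and GGGCGG can overlap each other and the ETS core, and ACGTG is part of the E-box CACGTG.

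**Figure D1:**
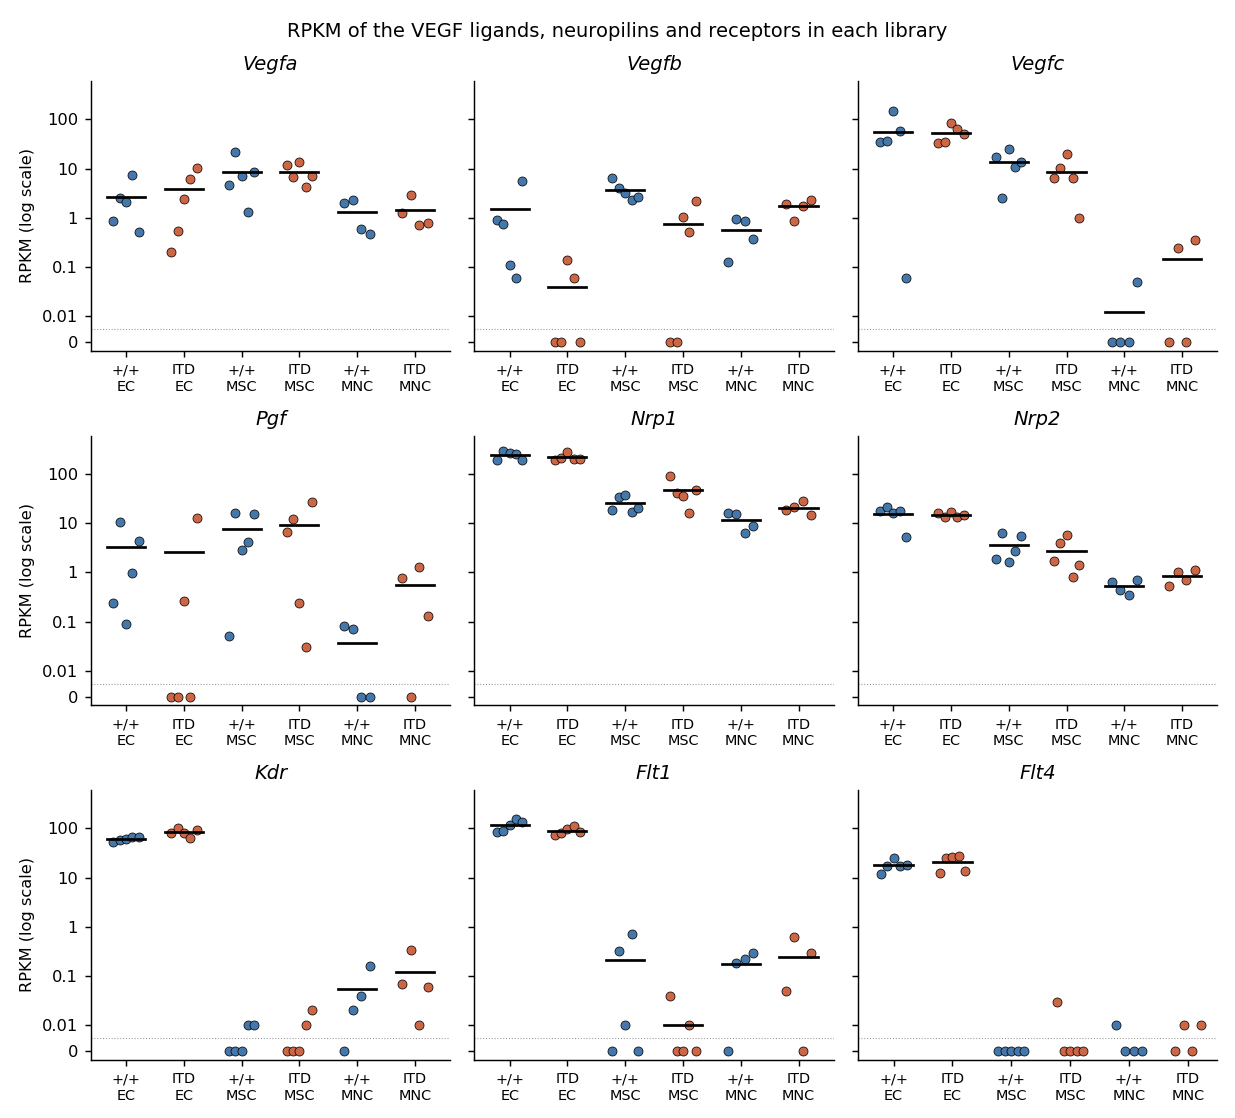
RPKM on a log axis of each of the 9 genes in each library, grouped by population and by Flt3 genotype (+/+ blue, ITD for ITD/ITD orange). Points below the dotted line were listed at 0, and black bars are means of at least 0.01 RPKM. Kdr, Flt1 and Flt4 lie above 10 RPKM in all 10 EC libraries and below 1 in all others, Nrp1 and Nrp2 fall in steps from ECs to MSCs to MNCs, and Vegfb, Vegfc and Pgf spread widely within groups.

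Nrp1 was the most abundant of the 9 genes in ECs, at 226 ± 41.9 RPKM (SD, n = 10). Flt1 followed at 102 ± 26.0, Kdr at 71.8 ± 16.1, Vegfc at 54.0 ± 39.1, Flt4 at 19.4 ± 6.13 and Nrp2 at 15.2 ± 4.27. Of these neighbours in rank, Nrp1 did not overlap Flt1 in any EC library, while Flt1 and Kdr, Kdr and Vegfc, Vegfc and Flt4, and Flt4 and Nrp2 overlapped over the 10 libraries. Vegfa (3.33 ± 3.47), Pgf (2.95 ± 4.86) and Vegfb (0.764 ± 1.73) were the lowest, with SDs above their means.
In MSCs the order was Nrp1 (35.6 ± 22.7), Vegfc (11.3 ± 7.63), Vegfa (8.604 ± 5.71), Pgf (8.48 ± 9.05), Nrp2 (3.13 ± 2.01) and Vegfb (2.24 ± 2.03), and the ranges of all neighbours in this order overlapped. The receptors stood at 0.109 RPKM (Flt1), 0.005 (Kdr) and 0.003 (Flt4). In MNCs only Nrp1 (16.1 ± 6.87, n = 8), Vegfa (1.39 ± 0.920) and Vegfb (1.15 ± 0.772) had means above 1 RPKM.

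Among ligands, Vegfc was the main one of ECs. Vegfc (chr8:54077606-54187096, plus strand; positions of genes are those of GENCODE M21 on GRCm38) encodes VEGF-C, which drives the growth of lymphatic vessels and also acts on sinusoids. In Flt3 +/+ ECs it was at 34.5, 35.6, 145, 57.6 and 0.06 RPKM in replicates 1 to 5, and in Flt3 ITD/ITD ECs at 33.5, 34.7, 85.4, 62.5 and 51.4. Every EC library but 1 was at 33.5 RPKM or higher, and the exception, Flt3 +/+ EC replicate 5, rested on 3 counts.
In MSCs Vegfc was at 17.6, 2.52, 24.7, 10.9 and 13.6 RPKM in Flt3 +/+ and at 6.59, 10.1, 19.6, 6.39 and 0.98 in Flt3 ITD/ITD. All 8 MNC libraries were at 0.35 RPKM or below, with 1 count in all in Flt3 +/+ and 17 in Flt3 ITD/ITD. MSC levels were thus below 33.5 RPKM throughout and above those of every MNC library. Vegfc made up 70.5 ± 40.4% of the summed ligand RPKM in Flt3 +/+ ECs (n = 5) and 90.9 ± 12.7% in Flt3 ITD/ITD ECs, and the low share belonged to replicate 5, at 0.568%.

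That library, Flt3 +/+ EC replicate 5, differed from the other EC libraries in several members. It had the highest Vegfb of any EC library (5.61 RPKM) and the lowest Nrp2 (5.11). Lyve1, a gene of sinusoidal and lymphatic endothelium, was at 31.2 RPKM in it and at most at 11.2 in the other 9 EC libraries. The 6 sinusoidal markers, in contrast, summed to 171 RPKM in it, the lowest sum of the Flt3 +/+ ECs, whose highest was 287. In Flt3 ITD/ITD ECs that sum ran from 112 to 235 RPKM. Stab2, of the sinusoidal list, was at 4.85 RPKM in replicate 5, within the 0.21 to 22.2 of Flt3 ITD/ITD ECs. Cdh5 (225 RPKM) and Pecam1 (301), which mark endothelium, were within the range of the others. Without it, Vegfc in Flt3 +/+ ECs was 68.1 ± 52.2 RPKM (n = 4) in place of 54.5 ± 54.5 (n = 5).

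Vegfa (chr17:46016993-46032369, minus strand) encodes VEGF-A, the main growth factor for blood vessels, whose transcription is raised by low oxygen. It was highest in MSCs, at 4.63, 21.3, 7, 1.33 and 8.35 RPKM in Flt3 +/+ and 11.6, 6.76, 13.8, 4.15 and 7.15 in Flt3 ITD/ITD. ECs held 0.87, 2.57, 2.14, 7.47 and 0.52 RPKM in Flt3 +/+ and 0.2, 0.53, 2.41, 6.29 and 10.3 in Flt3 ITD/ITD. The ranges of MSCs and ECs overlapped, with values in ECs spanning more than an order of magnitude in each genotype.
In MNCs Vegfa was at 2.01, 2.28, 0.59 and 0.48 RPKM in Flt3 +/+ replicates 1 to 4 and at 1.25, 2.96, 0.73 and 0.79 in Flt3 ITD/ITD. In each genotype replicates 1 and 2 were above replicates 3 and 4. Fos, an immediate-early gene that rises during cell handling, was split the same way, at 323, 239, 10.4 and 8.06 RPKM in Flt3 +/+ and 317, 142, 15.6 and 4.24 in Flt3 ITD/ITD, and its part in the Vegfa values was not tested. The genotypes were evenly spread over these replicates, with 2 libraries of each on either side.

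Pgf (chr12:85166635-85177790, minus strand), the gene of placental growth factor, a ligand of VEGFR1, varied widely within groups. In MSCs it was at 0.05, 16.3, 2.89, 4.15 and 15.1 RPKM in Flt3 +/+ and 6.48, 12.3, 0.24, 0.03 and 27.3 in Flt3 ITD/ITD, so that values within a group spanned more than 2 orders of magnitude. In ECs it was at 0.24, 10.6, 0.09, 0.99 and 4.38 RPKM in Flt3 +/+, and in Flt3 ITD/ITD it was listed at 0 in 3 libraries and at 0.26 and 12.96 in the others. The library at 12.96, Flt3 ITD/ITD EC replicate 5, also had the highest Vegfa of the ECs (10.3 RPKM). Its 6 osteoblast markers summed to 157 RPKM, against at most 22.4 in the other 9 EC libraries, and its 10 mesenchymal markers to 494, against 181 to 285, and their part in its Pgf and Vegfa was not tested. MNCs held at most 1.27 RPKM of Pgf. Neither genotype nor population separated its values without overlap.

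Vegfb (chr19:6982473-6987651, minus strand) encodes VEGF-B, a ligand of VEGFR1 known for its part in the fatty acid supply of tissues. It was the lowest ligand in ECs and MSCs, with at most 6.57 RPKM and 235 counts in any library. The ligand VEGF-D, though not among the 9 genes, completed the picture in MSCs: Figf was at 4.82, 23.6, 7.35, 15.2 and 21.7 RPKM in Flt3 +/+ MSCs and at 28.4, 14.3, 21.2, 13.9 and 16.3 in Flt3 ITD/ITD MSCs. It was at or below 0.97 RPKM in all EC and MNC libraries except Flt3 ITD/ITD EC replicate 2, where it was at 7.03. With Figf counted, the ligands of MSCs summed to 48.3 ± 15.6 RPKM in Flt3 +/+ and 46.3 ± 12.8 in Flt3 ITD/ITD, and Figf made up 29.2 ± 13.3% and 42.0 ± 11.8% of them.

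**Figure D2:**
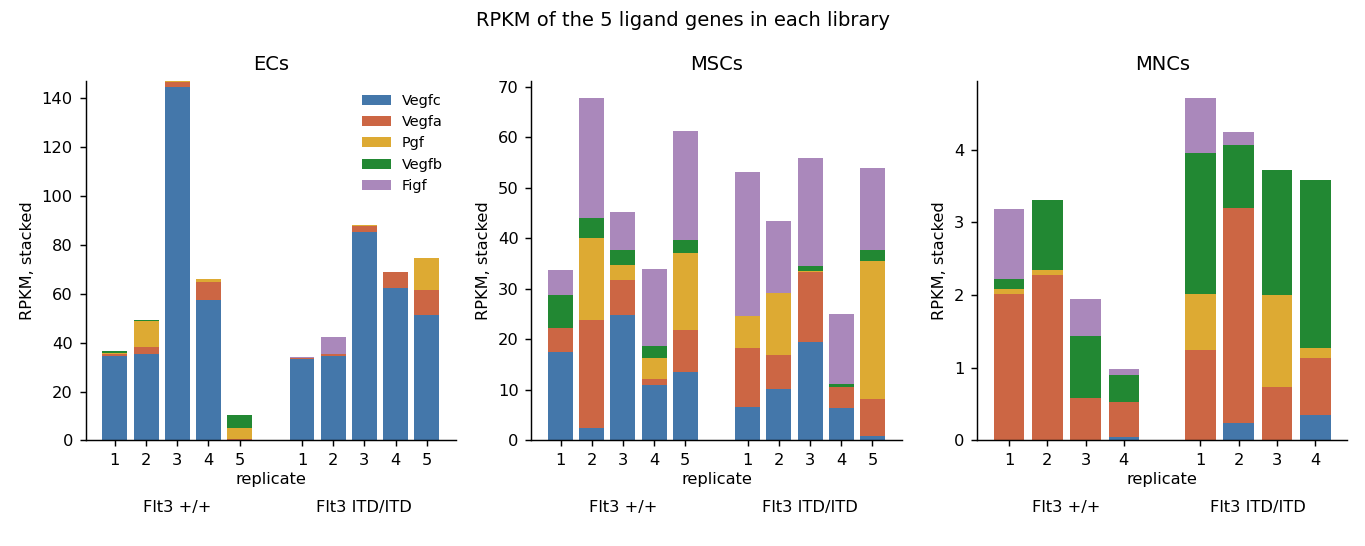
Stacked bars of the RPKM of Vegfc, Vegfa, Pgf, Vegfb and Figf (VEGF-D) in each library of ECs, MSCs and MNCs, by Flt3 genotype and replicate, with a linear axis of its own in each panel. Vegfc fills most of 9 of the 10 EC bars, MSC bars are mixed with Figf in every library, and MNC bars stay below 5 RPKM and consist mainly of Vegfa and Vegfb.

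The receptors separated ECs from all other cells. Kdr (chr5:75932827-75978458, minus strand) encodes VEGFR2, the main signaling receptor for VEGF-A. It was at 52.1, 57.4, 59.8, 65.4 and 67.8 RPKM in Flt3 +/+ ECs and at 79.7, 103, 79.1, 62.8 and 91.1 in Flt3 ITD/ITD ECs. In MSCs no library passed 0.02 RPKM and in MNCs none passed 0.34, so the lowest EC library was far above the highest of any other kind. All Flt3 +/+ MSCs together held 2 Kdr counts against 32827 in ECs, a ratio per total count of 23185 (95% interval 6418 to 191455, from counting error only).

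Flt1 (chr5:147561604-147726011, minus strand) encodes VEGFR1 in a membrane-bound and a soluble form, which gene counts cannot separate. It was at 83.6, 87.8, 119, 152 and 135 RPKM in Flt3 +/+ ECs and at 74.0, 80.1, 97.7, 112 and 83.9 in Flt3 ITD/ITD ECs. In Flt3 +/+ MSCs 2 libraries held 70 and 86 counts (0.33 and 0.70 RPKM) and the other 3 held at most 1, while Flt3 ITD/ITD MSCs held 7 counts in all. MNCs were at most at 0.63 RPKM. As with Kdr, no library of MSCs or MNCs came near the lowest EC library.

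Flt4 (chr11:49609263-49652739, plus strand) encodes VEGFR3, the receptor of VEGF-C and VEGF-D. It was at 11.9, 16.9, 25.5, 17.3 and 18.2 RPKM in Flt3 +/+ ECs and at 12.4, 24.5, 26.7, 27.7 and 13.4 in Flt3 ITD/ITD ECs. Flt3 +/+ MSCs held no Flt4 count in 5 libraries, and ECs were at least 4938-fold higher per total count when 3 counts were taken as the floor over the group. Flt3 ITD/ITD MSCs held 5 counts, all in replicate 1, and all MNCs together held 3. Flt4 was thus present in every EC library, with Prox1 at most at 0.34 RPKM. The lymphatic endothelial markers (5 of 6 listed genes were measured) summed to 76.1 RPKM in Flt3 ITD/ITD EC replicate 4, the library with the highest Flt4. They summed to 38.8 in Flt3 +/+ EC replicate 5 and to between 0.08 and 11.7 in the other 8 EC libraries. In MSCs, with Flt4 at most at 0.03 RPKM, they summed to 202 to 321 in Flt3 +/+ and 140 to 332 in Flt3 ITD/ITD. Of that list, Mmrn1 was at 0 in every MSC library, Prox1 at most at 0.07 RPKM and Lyve1 at most at 4.66. The MSC sums thus came mainly from the other measured genes of the list. In Flt3 ITD/ITD EC replicate 4, Prox1 was at 0.06 RPKM and Lyve1 at 11.2. The part of these markers in Flt4 was not tested.

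Of the RPKM of the 3 receptors in Flt3 +/+ ECs, Flt1 made up 59.0 ± 4.08%, Kdr 31.7 ± 3.46% and Flt4 9.32 ± 2.10% (n = 5). In Flt3 ITD/ITD ECs the shares were 46.2 ± 6.09%, 43.2 ± 8.01% and 10.6 ± 3.14%. Flt1 was above Kdr in every Flt3 +/+ EC library, and their ranges did not overlap there. In Flt3 ITD/ITD ECs Flt1 was above Kdr in 2 of 5 libraries, replicates 3 and 4, and below it in the other 3.

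The neuropilins were graded. Nrp1 (chr8:128358604-128503363, plus strand), the co-receptor that strengthens the binding of VEGF-A to VEGFR2, was at 187, 294, 261, 255 and 189 RPKM in Flt3 +/+ ECs and 192, 207, 282, 197 and 199 in Flt3 ITD/ITD ECs. In MSCs it was at 18.2, 34.5, 36.3, 16.5 and 20.4 RPKM in Flt3 +/+ and 92.2, 40.9, 34.7, 16.0 and 46.5 in Flt3 ITD/ITD. In MNCs it was at 15.8, 15.04, 6.19 and 8.87 RPKM in Flt3 +/+ and 18.7, 21.5, 27.9 and 14.4 in Flt3 ITD/ITD. ECs lay above all other libraries, whereas MSCs and MNCs overlapped.
Nrp2 (chr1:62703285-62818695, plus strand), the co-receptor known for its pairing with VEGFR3 and for lymphatic vessels, was at 17.3, 21.2, 16.0, 17.7 and 5.11 RPKM in Flt3 +/+ ECs and 16.3, 13.0, 17.1, 13.0 and 14.7 in Flt3 ITD/ITD ECs. MSCs ranged from 0.79 to 6.24 RPKM and MNCs from 0.35 to 1.11. Only EC replicate 5 of Flt3 +/+ fell into the range of MSCs. Nrp1 made up 94.0 ± 2.14% of neuropilin RPKM in Flt3 +/+ ECs, 87.2 ± 6.32% in MSCs and 95.1 ± 1.94% in MNCs.

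Populations were compared within each genotype with edgeR's quasi-likelihood test on the counts of all 28 libraries, over 16897 genes and with a threshold of 0.1 on the Benjamini-Hochberg adjusted p. Between ECs and MSCs of Flt3 +/+ mice, 5 members were called, all higher in ECs: Kdr, Flt1, Flt4, Nrp1 and Nrp2. Of all genes, 12.5% were called higher in ECs and 14.8% higher in MSCs. Nrp1 was higher by a log2 fold change of 3.04 (SE 0.35, edgeR adjusted p = 5.55e-07) and Nrp2 by 1.91 (SE 0.42, edgeR adjusted p = 0.00197). Vegfa was lower in ECs by 1.95 on the log2 scale (SE 0.84) with an edgeR adjusted p of 0.101, and DESeq2 (0.0407) or RLE normalization (0.0954) put it past the threshold, as did leaving out EC replicate 4 (0.0444) or MSC replicate 4 (0.0655). None of the 4 ligands was called, although with EC replicate 5 left out Vegfc was called higher in ECs (log2 fold change 2.10, edgeR adjusted p = 0.0805) and Vegfb lower (log2 fold change -3.21, edgeR adjusted p = 0.0947).

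In Flt3 ITD/ITD mice 7 members were called between ECs and MSCs: the same 5 and Vegfc were higher in ECs, and Vegfb was lower. All genes were called higher in ECs in 12.5% of cases and higher in MSCs in 15.5%. Vegfb was lower in ECs by 4.09 on the log2 scale (SE 1.40, edgeR adjusted p = 0.0379), on 6 counts in ECs against 87 in MSCs. Vegfc stood close to the threshold, at a log2 fold change of 2.43 (SE 1.03, edgeR adjusted p = 0.0966), and was not called under RLE normalization (adjusted p = 0.107) or without any filter on low counts (adjusted p = 0.115), nor after leaving out 8 of the 10 libraries compared, 1 at a time. Vegfb missed the threshold without Flt3 ITD/ITD MSC replicate 5 (edgeR adjusted p = 0.1001). Without Flt3 ITD/ITD EC replicate 5, Pgf (log2 fold change -6.97, edgeR adjusted p = 0.0217) and Vegfa (-2.31, adjusted p = 0.0629) were called lower in ECs, and Vegfc was not called (adjusted p = 0.108).

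Between ECs and MNCs, 7 members were higher in Flt3 +/+ ECs (the 5 above with Vegfc and Pgf) and none was lower, beside 20.0% of all genes higher in ECs and 19.3% higher in MNCs. In Flt3 ITD/ITD mice 6 were higher (the 5 with Vegfc) and Vegfb was lower, beside 19.2% and 18.9% of all genes. Vegfc held 5611 counts in Flt3 +/+ ECs and 1 in MNCs, a ratio per total count of 4196 (95% interval 753 to 165764). Pgf rested on few libraries, as without Flt3 +/+ EC replicate 2 (edgeR adjusted p = 0.104), MNC replicate 3 (0.120) or MNC replicate 4 (0.122) it was no longer called.
Vegfb was lower in Flt3 ITD/ITD ECs than in MNCs by 5.14 on the log2 scale (SE 1.48, edgeR adjusted p = 0.0098), with 6 counts against 159. The gap between Nrp1 in ECs and MNCs was 4.35 (SE 0.41) in Flt3 +/+ and 3.45 (SE 0.39) in Flt3 ITD/ITD mice, and that of Nrp2 was 4.26 (SE 0.52) and 3.79 (SE 0.50).

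Between MSCs and MNCs, Vegfa, Vegfc, Pgf, Nrp1 and Nrp2 were higher in Flt3 +/+ MSCs and Kdr was lower, beside 20.5% of all genes higher in MSCs and 18.2% higher in MNCs. In Flt3 ITD/ITD mice Vegfa, Vegfc, Nrp1 and Nrp2 were higher in MSCs and Kdr and Flt1 were lower, beside 19.8% and 17.4%. Vegfa was higher in MSCs by a log2 fold change of 2.78 (SE 0.94, edgeR adjusted p = 0.025) in Flt3 +/+ and 2.86 (SE 0.94, edgeR adjusted p = 0.0227) in Flt3 ITD/ITD mice. Kdr was at 2 counts in Flt3 +/+ MSCs against 21 in MNCs and at 3 against 50 in Flt3 ITD/ITD mice, and without Flt3 +/+ MNC replicate 4 it was not called in that genotype (edgeR adjusted p = 0.145). Flt1 was not called in Flt3 ITD/ITD mice without MNC replicate 2 (edgeR adjusted p = 0.141). The endothelial gene Cdh5 was also detected in MNCs, at 0.17 to 1.43 RPKM, and its part in the receptor counts of MNCs was not tested.

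**Figure D3:**
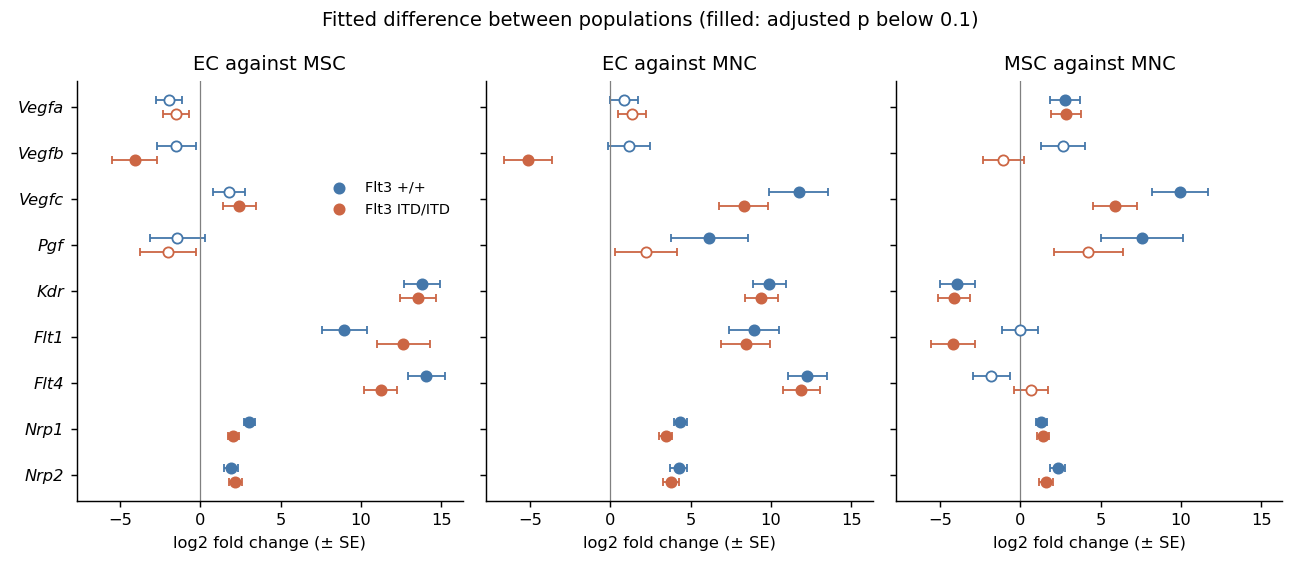
Fitted log2 fold change with its SE for each of the 9 genes between ECs and MSCs, ECs and MNCs, and MSCs and MNCs, in Flt3 +/+ (blue) and Flt3 ITD/ITD mice (orange). Filled points passed an adjusted p of 0.1. The receptors show the largest differences between ECs and MSCs, the neuropilins have the smallest errors, and Vegfb lies on opposite sides of 0 in the genotypes for ECs against MNCs.

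Genotypes were then compared within each population by the same test. None of the 9 genes was called in any population. The test itself called 1 gene (0.00810% of 12351 tested) in ECs. In MSCs it called 4 genes (0.0295% of 13574), and 2 genes were called in MNCs (0.0144% of 13926). Kdr in ECs and Nrp1 in MNCs had an unadjusted p below 0.05, as did 4.99% of all genes tested in ECs, 4.24% in MSCs and 10.4% in MNCs. Its filter on low counts left 7 members for ECs, 6 for MSCs and 5 for MNCs, and the others were fitted without that filter, where Vegfb in ECs and Pgf in MNCs also had an unadjusted p below 0.05. edgeR's exact test called none of the members. DESeq2 called Vegfb in ECs (adjusted p = 0.0566), as it did 390 of the 21653 genes it tested there. It called no other member.

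For single genes, mean RPKM was also set against genotype by an exact permutation test, two-sided, in 27 comparisons, whose smallest possible p is 0.00794 for 5 against 5 and 0.0286 for 4 against 4. The exact p was below 0.05 in 3 of them: Vegfb in ECs, Vegfb in MSCs and Kdr in ECs. By the same test, 3.69% of 23493 EC genes, 3.79% of 21155 MSC genes and 4.43% of 22749 MNC genes were below 0.05, counting all genes above 0 RPKM in at least 1 library of the population. Ranges of RPKM that do not overlap between genotypes were found for 1.14% of the 12477 EC genes, 0.888% of the 12494 MSC genes and 7.06% of the 12036 MNC genes, counting genes with a mean of at least 1 RPKM. Among the members with that mean, this held for 0 of 8 EC members, 1 of 6 MSC members (Vegfb) and 0 of 3 MNC members.

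Vegfb had lower means in ECs and MSCs of Flt3 ITD/ITD mice. In MSCs it was at 6.57, 3.99, 3.14, 2.32 and 2.61 RPKM in Flt3 +/+ (84 to 165 counts) and at 0, 0, 1.02, 0.52 and 2.21 in Flt3 ITD/ITD (0 to 42 counts). Every Flt3 ITD/ITD library was below every Flt3 +/+ library. Means were 3.73 ± 1.71 and 0.75 ± 0.920 RPKM (exact permutation p = 0.00794), and the fitted log2 fold change was -2.33 (SE 1.29) with an edgeR adjusted p of 0.999 over all genes. Leaving out any 1 library kept the exact permutation p at 0.0159 or below and the difference between -2.27 and -3.34 RPKM. Osteoblast markers summed to 185 to 1662 RPKM in 4 of 5 Flt3 ITD/ITD MSC libraries (2856 in replicate 1), against 1811 to 3541 in Flt3 +/+, and the 6 B cell markers to 77.5 to 141 against 47.9 to 79.3. Their part in the Vegfb values was not tested.

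In ECs Vegfb was at 0.9, 0.76, 0.11, 0.06 and 5.61 RPKM in Flt3 +/+ (15, 21, 2, 1 and 235 counts) and at 0, 0, 0.14, 0.06 and 0 in Flt3 ITD/ITD (0, 0, 5, 1 and 0 counts). The groups overlapped at 0.06 to 0.14 RPKM, and most of the Flt3 +/+ mean came from replicate 5. Means were 1.49 ± 2.33 and 0.04 ± 0.0616 RPKM (exact permutation p = 0.0397), with an edgeR adjusted p of 0.560 without the filter on low counts. Without replicate 5 of Flt3 +/+ the difference in mean RPKM shrank from -1.45 to -0.418, and without any 1 library of Flt3 ITD/ITD the exact permutation p rose to between 0.111 and 0.175. VEGF-B is listed among the genes behind the study's pathway analysis of these EC libraries, so its direction here is not independent evidence.

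In MNCs Vegfb was at 0.13, 0.96, 0.85 and 0.37 RPKM in Flt3 +/+ and at 1.94, 0.87, 1.72 and 2.32 in Flt3 ITD/ITD, so that 3 of 4 Flt3 ITD/ITD libraries were above all of Flt3 +/+. Means were 0.578 ± 0.393 and 1.71 ± 0.614 RPKM (exact permutation p = 0.0571), and the fitted log2 fold change was 1.37 (SE 0.65) with an edgeR adjusted p of 0.498. Its mean in Flt3 ITD/ITD mice was thus below that of Flt3 +/+ in ECs and MSCs and above it in MNCs, on at most 48 counts per MNC library.

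Kdr was the receptor whose level differed between genotypes in ECs by the exact test. At 60.5 ± 6.30 RPKM in Flt3 +/+ mice against 83.1 ± 15.01 in Flt3 ITD/ITD mice, it was 1.37-fold higher (exact permutation p = 0.0238), and 4 of 5 Flt3 ITD/ITD libraries were above all of Flt3 +/+. The fitted log2 fold change was 0.45 (SE 0.17, edgeR adjusted p = 0.927). The highest library, Flt3 ITD/ITD EC replicate 2, was the one with 4.57 RPKM of Ptprc, and without it the difference was 17.7 RPKM (exact permutation p = 0.0317) in place of 22.7.

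Flt1 lay on the other side, at 115 ± 29.5 RPKM in ECs of Flt3 +/+ mice against 89.5 ± 15.2 with the knock-in (exact permutation p = 0.127), with a fitted log2 fold change of -0.40 (SE 0.19, edgeR adjusted p = 1.0). The groups overlapped from 83.6 to 112 RPKM. Flt1 lies 161 kb from Flt3 on chromosome 5, the gene that carries the knock-in. Flt4, at 17.9 ± 4.86 and 20.9 ± 7.44 RPKM, differed by less than the spread between mice (exact permutation p = 0.468), with 3 Flt3 ITD/ITD libraries at 24.5 to 27.7 and 2 at 12.4 and 13.4.

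Nrp1 had higher means in Flt3 ITD/ITD mice outside the endothelium. In MNCs it was 11.5 ± 4.69 RPKM in Flt3 +/+ and 20.6 ± 5.67 in Flt3 ITD/ITD (exact permutation p = 0.0857), with 3 of 4 libraries above all of Flt3 +/+ and a fitted log2 fold change of 0.73 (SE 0.28, edgeR adjusted p = 0.434). In MSCs it was 25.2 ± 9.46 and 46.1 ± 28.2 RPKM (exact permutation p = 0.127), and without Flt3 ITD/ITD MSC replicate 1, the highest at 92.2, the difference of 20.9 RPKM became 9.36. Without replicate 4 of the same group, its lowest at 16.0, the difference was 28.4 RPKM (exact permutation p = 0.0159). In ECs it was 237 ± 47.2 and 215 ± 37.6 RPKM (exact permutation p = 0.476). Over all libraries, neither difference outside ECs passed the exact test.
Sums of some marker lists of other cells were also higher in these groups or libraries. In MNCs the 10 endothelial markers summed to 17.2 to 36.4 RPKM in Flt3 ITD/ITD and 8.97 to 16.1 in Flt3 +/+ mice. The 6 sinusoidal markers summed to 17.7 to 51.5 and 9.19 to 11.9. Neither sum overlapped between genotypes, which was also so for 7.06% of single MNC genes with a mean of at least 1 RPKM. Pecam1, of the endothelial list, was alone at 10.4 to 23.6 RPKM in Flt3 ITD/ITD and 6.47 to 9.76 in Flt3 +/+. Cdh5, of the same list, overlapped, at 0.17 to 1.21 and 0.17 to 1.43. Stab2, of the sinusoidal list, was at 0.02 to 0.08 and 0.04 to 0.13, and Gpr182, of the same list, was at 0 in every MNC library. In MSCs, replicate 1 of Flt3 ITD/ITD had the highest sinusoidal (116 RPKM) and macrophage (106) sums, although replicate 4, with the lowest Nrp1 of that group, was close to it in the first (115 RPKM). These lists share Vcam1, so their sums are not separate. Stab2 was at 0.07 RPKM in replicate 1. Mrc1 of the sinusoidal list and Csf1r, C1qa and C1qb of the macrophage list were without RPKM in every Flt3 ITD/ITD MSC library. The part of these markers in the Nrp1 values was not tested.

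Nrp2 passed the exact test in no population, with 15.5 ± 6.11 and 14.8 ± 1.86 RPKM in ECs (exact permutation p = 0.849) and an exact permutation p of 0.532 in MSCs. In MNCs it was 0.533 ± 0.165 in Flt3 +/+ and 0.83 ± 0.273 RPKM with the knock-in (exact permutation p = 0.143). Vegfc averaged 54.5 ± 54.5 and 53.5 ± 21.5 RPKM in ECs (exact permutation p = 0.968) and 13.9 ± 8.20 and 8.73 ± 6.88 in MSCs (exact permutation p = 0.310). Vegfa averaged 8.52 ± 7.62 and 8.69 ± 3.90 RPKM in MSCs (exact permutation p = 0.984) and 2.71 ± 2.79 and 3.94 ± 4.29 in ECs (exact permutation p = 0.643).

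**Figure D4:**
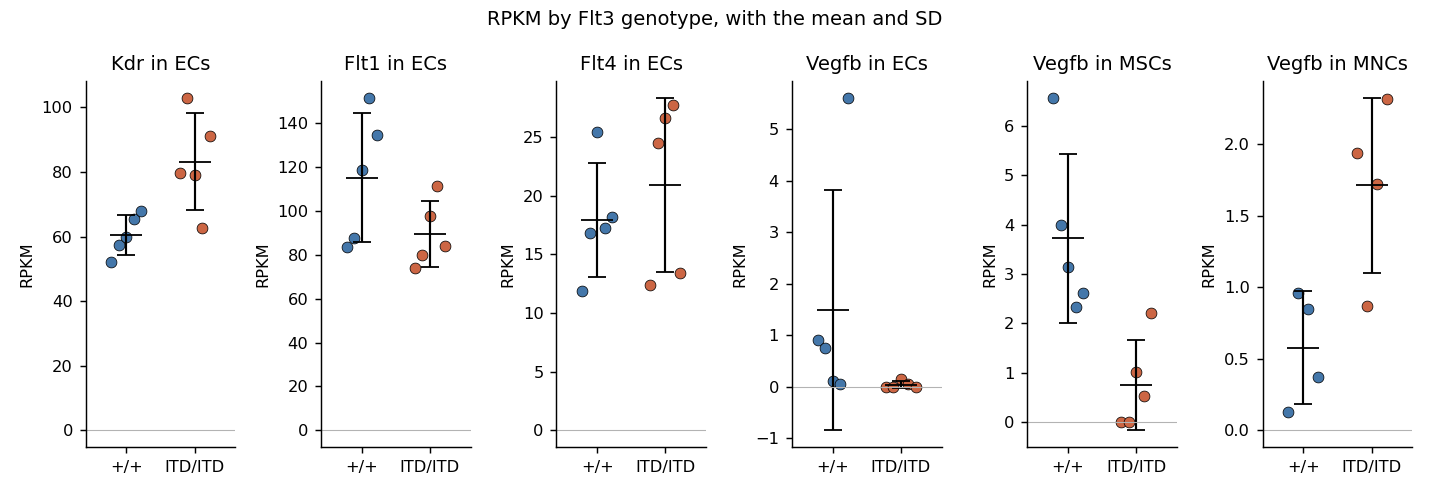
RPKM of Kdr, Flt1 and Flt4 in ECs and of Vegfb in ECs, MSCs and MNCs by Flt3 genotype, each point 1 library, with the mean and SD and a linear axis of its own in each panel. Vegfb in MSCs is the panel without overlap, Kdr has 4 of 5 Flt3 ITD/ITD points above all Flt3 +/+ points, and Vegfb in ECs has 1 high Flt3 +/+ point at 5.61 RPKM.

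Whether genotype effects differed between populations was tested as an interaction in the model of all 28 libraries. None of 27 tests of the members passed an adjusted p of 0.1, the lowest being 0.346 for Flt4 between ECs and MSCs, and 6 had an unadjusted p below 0.05. These were 3 of 9 for ECs against MSCs, 1 for ECs against MNCs and 2 for MSCs against MNCs, where 10.6%, 8.23% and 5.94% of all genes had one. After adjustment, 0.379% of all genes were called for ECs against MSCs, 0.0118% for ECs against MNCs and 0.00592% for MSCs against MNCs. For Vegfb, the effect in ECs minus that in MNCs was -6.30 on the log2 scale (SE 1.98, edgeR adjusted p = 0.355). DESeq2 called this difference (adjusted p = 0.0169), and its number of calls over all genes is given in the closing section.

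Genes that work with the VEGF family were read from a hand-written list of 115 in 7 groups, of which 113 were tested between populations. Between ECs and MSCs of Flt3 +/+ mice 28 were higher in ECs and 22 lower (median log2 fold change 0.09, against 0.03 over all genes). Against MNCs, 57 were higher and 15 lower in ECs (median 1.42, against 0.04), and 50 were higher and 17 lower in MSCs (median 1.11, against 0). Of all genes, 12.5% were called higher in ECs than in MSCs and 14.8% lower. For ECs against MNCs these shares were 20.0% and 19.3%, and for MSCs against MNCs 20.5% and 18.2%. Transcription factors known for endothelial receptor genes were higher in ECs than in MSCs in 7 of 10 cases and lower in 1. Sox18, an endothelial factor, was at 92.1 ± 30.0 RPKM in Flt3 +/+ ECs and listed at 0 in every MSC library, while Foxc2, known from lymphatic development, was at 0.008 ± 0.013 against 1.29 ± 0.594. Foxc1 was the one higher in MSCs than in MNCs by most (9.75 ± 4.46 against 0.0125 ± 0.025 RPKM) and the hematopoietic factor Tal1 the one lower by most.

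Genes of other ligands and of ligand processing ran the other way, with 0 of 10 higher and 5 lower in Flt3 +/+ ECs than in MSCs. The shares of all genes were 12.5% and 14.8%. In MSCs against MNCs 9 were higher and 1 lower, beside 20.5% and 18.2% of all genes. Ccbe1, whose product is needed to activate VEGF-C, was at 0.002 RPKM in Flt3 +/+ ECs and 4.68 ± 2.32 in MSCs (log2 fold change -10.80, SE 1.51, edgeR adjusted p = 9.04e-06). Hspg2, the gene of perlecan, was 13.0 ± 4.43 in ECs, 10.2 ± 1.57 in MSCs and 0.005 ± 0.010 RPKM in MNCs, and Mmp9, a protease that frees matrix-bound VEGF, was 198 ± 29.5 in MNCs against 0.04 in either other population. Adamts3, the protease that works with Ccbe1 and which was named after its values were seen, was lower in ECs than in MSCs as well (log2 fold change -9.77). It was at 0.01 ± 0.0173 RPKM in Flt3 +/+ ECs and 6.49 ± 7.36 in MSCs, with an SD above its mean in MSCs. Ccbe1 and Adamts3 thus had higher means in Flt3 +/+ MSCs than in ECs. Of the same group, Furin was at 7.2 ± 2.93 RPKM in Flt3 +/+ ECs and 7.75 ± 0.766 in MSCs. In Flt3 ITD/ITD mice Furin was at 8.77 ± 2.29 in ECs and 5.86 ± 2.10 in MSCs. Pcsk5 was at 5.6 ± 7.99 RPKM in Flt3 +/+ ECs and 7.88 ± 3.14 in MSCs. Vegfc itself was not called between these populations of Flt3 +/+ mice.

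Among partners of the receptors, 4 of 16 were higher and 5 lower in Flt3 +/+ ECs than in MSCs, beside 12.5% and 14.8% of all genes. Cdh5 was higher by a log2 fold change of 11.38 (SE 0.98) and Ptpn6, a phosphatase of blood cells, lower by 6.26 on the log2 scale (SE 2.56). The Ptpn6 level of Flt3 +/+ MSCs rested on replicate 5 (6.49 RPKM, against at most 0.01 in the other 4), where the 10 leukocyte markers summed to 119 RPKM, against 0.92 to 28.6 in the others. Cav1, the gene of caveolin, was at 2073 ± 254 RPKM in ECs and 258 ± 58.0 in MSCs, against 0.0075 ± 0.015 in MNCs. Semaphorins and plexins that use neuropilins were split, 4 of 12 higher and 6 lower in ECs than in MSCs, with Sema3g (0.784 ± 0.984 against 0 RPKM) and Sema3c (0.008 ± 0.0179 against 61.9 ± 15.5) at the ends. Sema3f had the largest difference of this group between ECs and MNCs (9.23 ± 8.49 against 0.0025 ± 0.005).

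Among genes that VEGF induces in endothelium, 3 of 16 were higher and 2 lower in ECs than in MSCs, beside 12.5% and 14.8% of all genes. Against MNCs, 12 were higher and 1 lower in ECs, beside 20.0% and 19.3%. Dll4, a Notch ligand of arteries and sprouting tips, was 15.8 ± 7.57 RPKM in Flt3 +/+ ECs and 0.006 ± 0.00894 in MSCs, and F3, the gene of tissue factor, was 0.028 ± 0.0626 against 136 ± 88.4. Adamts1 was at 63.8 ± 40.0 RPKM in ECs and 44.6 ± 25.0 in MSCs, against 0.0075 ± 0.00957 in MNCs. Of 8 genes of the hypoxia control of Vegfa, Epas1, the gene of HIF-2 alpha, was the only one called between ECs and MSCs (163 ± 34.3 against 5.24 ± 2.97 RPKM). Among 41 adaptors and kinases below the receptors, 9 were higher and 3 lower in ECs than in MSCs, with Nos3, the endothelial nitric oxide synthase, at 10.53 ± 4.91 against 0.014 ± 0.0313 and Src at 0.048 ± 0.0909 against 1.53 ± 1.27. Against MNCs, Hspb1 (205 ± 123 RPKM in ECs and listed at 0 in MNCs) and Vav2 (0.01 against 0.88 RPKM) were the extremes of that group.

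No gene of the list was called between genotypes by edgeR's quasi-likelihood test: of 95 tested in ECs, 98 in MSCs and 78 in MNCs, 0 passed, while 9, 3 and 8 had an unadjusted p below 0.05, beside the 4.99%, 4.24% and 10.4% of all genes given above. Median log2 fold changes were -0.06, -0.03 and -0.16, against -0.01, 0.03 and -0.01 over all genes. edgeR's exact test called none. DESeq2 called 3 of 110 in ECs (Cdh5, Prkca and Spry4) and 3 of 109 in MNCs (Efnb2, Prkcb and Tal1). Over all genes it called 390 of 21653 in ECs and 457 of 22450 in MNCs.
In ECs the 3 smallest p belonged to Spry4, Cdh5 and Sox18. Spry4, an inhibitor of receptor tyrosine kinase signaling, was at 9.46, 10.3, 11.5, 14.8 and 14.5 RPKM in Flt3 +/+ and at 54.0, 21.2, 22.5, 24.0 and 26.9 in Flt3 ITD/ITD, without overlap (exact permutation p = 0.00794), with an edgeR adjusted p of 0.868. Cdh5 was lower without overlap, at 239 ± 10.3 against 187 ± 15.4 RPKM (exact permutation p = 0.00794, edgeR adjusted p = 0.927). Sox18 was 92.1 ± 30.0 against 50.5 ± 9.21 RPKM (exact permutation p = 0.0317).
In MSCs the 3 smallest p were those of Fyn (23.9 ± 6.27 against 13.9 ± 2.67 RPKM, exact permutation p = 0.00794), Nck2 (22.0 ± 3.78 against 13.9 ± 3.02, exact permutation p = 0.00794) and Pik3ca (7.25 ± 1.87 against 10.7 ± 3.11, exact permutation p = 0.0556), 3 signaling genes below many receptors. In MNCs they were Prkcb (19.0 ± 4.70 against 13.6 ± 2.60, exact permutation p = 0.171), Mef2c (15.5 ± 5.32 against 26.8 ± 7.06, exact permutation p = 0.0857) and Tal1 (6.04 ± 4.78 against 1.23 ± 0.827, exact permutation p = 0.143). These genes were picked by their p, so the single tests describe them and support no statement on the list.

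The genes whose log2(RPKM + 1) followed each member most closely were found by Pearson's r over all 28 libraries, which mostly reflects the 3 populations, and over the libraries of the population where the member was highest. The points share libraries, depth and handling, and the top of many genes was taken, so these values are descriptions. Over 28 libraries, Kdr was followed by Gpihbp1 (r = 0.998), C1qtnf9 (0.997) and AK080982 (0.997), Flt1 by Mmrn2 (0.996), Gpihbp1 (0.995) and Ptprb (0.995), and Flt4 by AK080982 (0.996), Podxl (0.995) and Gpihbp1 (0.993). The 3 receptors thus had Gpihbp1 in common. Nrp1 was followed by Fam198b (0.970) and Nrp2 by Mecom (0.942), and among ligands Vegfc by Nuak1 (0.899), Vegfa by Trip6 (0.841), Pgf by Rcan2 (0.763) and Vegfb by Heca (0.691).
Within the 10 EC libraries the closest genes were other ones: Gstm7 for Kdr (0.919), Slc43a3 for Flt1 (0.919), Sept2 for Flt4 (0.863), Klf14 for Nrp1 (0.968), Ppp2r1a for Nrp2 (0.947) and Amotl1 for Vegfc (0.925). Amotl1 and Ppp2r1a stood among the 3 closest for each of Vegfc and Nrp2. Within the 10 MSC libraries they were AK196308 for Vegfa (0.934), Zfp715 for Vegfb (0.928) and Akap7 for Pgf (0.921).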

How the data were processed

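The authors aligned single-end reads with Bowtie to mm10 UCSC transcripts, discarded reads with more than 1 place, and quantified genes with RSEM. The deposited table holds the resulting estimated counts, as whole numbers, and RPKM, which the authors computed per gene to 2 decimals. Whether counting used strand is not given in the sources used here. Each library was 1 mouse, so replicates within a group are separate animals. Whether libraries of different populations came from the same mice is not given, and the model of 6 groups treats all libraries as independent.

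Estimated counts were tested with edgeR 4.0.16 (R 4.3.3; TMM normalization, filterByExpr, quasi-likelihood test, Benjamini-Hochberg adjustment over all genes tested, threshold 0.1). Genotypes were fitted within each population, and populations and interactions in 1 model of 6 groups. Single genes were compared by exact permutation of mean RPKM (scipy 1.17.1). Scripts were tested on simulated data. Total counts per library were 6377013 to 33880743. Count ratios have exact binomial 95% intervals.

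The members and lists were chosen with earlier results of these data known. Genes of the VEGF list were named as the 3 smallest p per genotype comparison, since none was called, and, between Flt3 +/+ populations, as the largest called difference in each direction per group. The 3 genes most like each member were ranked by Pearson's r over genes with a mean of at least 1 RPKM. Alternatives were RLE normalization, no filter on low counts, a replicate block, DESeq2 1.42.0, edgeR's exact test, other sets of libraries in the fit, an added rule on the fold change, other scales of the exact test, and each library left out.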

Additional observations from a re-analysis of the deposited data

Results flagged for a closer look

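Within groups of 4 or 5 libraries, 7 of 53 sets of member values (13.2%) had a library flagged by Dixon's test. In these sets its gap to the nearest other library exceeded the critical value. The test's chance rate of about 1 in 20 groups is for normally distributed values, and many RPKM values here were at 0. Where all libraries but 1 are at 0, the gap is the whole range whatever the count. The percentage therefore cannot show an excess of outliers. In 3 of the 7 sets the library stood on many counts. Vegfb in Flt3 +/+ EC replicate 5 was at 5.61 RPKM (235 counts), against 0.06 to 0.9 in the others. Pgf in Flt3 ITD/ITD EC replicate 5 was at 12.96 RPKM (492 counts), against 0 to 0.26, and this library also had the highest osteoblast (157 RPKM) and mesenchymal (494 RPKM) marker sums of the ECs. Nrp1 in Flt3 ITD/ITD EC replicate 3 was at 281.87 RPKM, against 191.81 to 207.46.

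The other 4 rested on 5 counts or fewer in groups otherwise at or near 0. Vegfc was at 0.05 RPKM in Flt3 +/+ MNC replicate 4 (1 count), and Flt4 was at 0.01 RPKM in Flt3 +/+ MNC replicate 1 (1 count). Flt3 ITD/ITD MSC replicate 1 held both others, Flt1 at 0.04 RPKM (5 counts) and Flt4 at 0.03 RPKM (5 counts).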

How the results depend on the processing

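The number of genes called between genotypes depended on the tool, while members were called only by DESeq2, 1 in ECs (Vegfb) and 1 for the genotype effect in ECs against MNCs (Vegfb). In ECs, where the reported count was 1, 0 genes were called with no filter, 16 by edgeR's exact test, 390 by DESeq2 and 290 in the 6-group model. In MSCs (4 reported) these were 2, 19, 220 and 18, and in MNCs (2 reported) the last 3 were 164, 457 and 6. Fitting ECs and MSCs alone called 2687 genes in Flt3 +/+ mice and 2327 in the knock-in. For interactions, DESeq2 called 961 genes for ECs against MSCs, 517 for ECs against MNCs and 388 for MSCs against MNCs, and no filter gave 12 for the first. With replicate numbers as a block, 0 genes were called between genotypes in ECs, MSCs and MNCs and 1 for the interaction of ECs and MSCs. Over all genes, no same-numbered pair correlated above 0.1, so the numbers were not taken as pairs, although Vegfa and Fos in MNCs were higher in replicates 1 and 2 of each genotype. Under the block the log2 fold change changed sign for Vegfa in ECs (-0.38) and MNCs (-0.017), Pgf in MSCs (-0.77), Flt1 in MNCs (-0.022) and Nrp2 in ECs (0.052) between genotypes, and for Pgf between ECs and MNCs of Flt3 ITD/ITD mice (-1.52). None of these was called in either fit. Vegfc in ECs between genotypes was -0.0080 with RLE normalization, -0.0089 by DESeq2 and -0.00044 in the 6-group model, and Flt1 between MSCs and MNCs of Flt3 +/+ mice was 0.040 with no filter. The cause was not tested for any of these. With 1 library left out at a time, 0 genes were called between genotypes in ECs, 0 to 2 in MSCs and 0 to 1 in MNCs, and members called numbered 5 to 7 between ECs and MSCs of Flt3 +/+ and 5 to 8 of Flt3 ITD/ITD mice. Genes called for the interaction ran from 3 to 125 for ECs against MSCs, from 2 to 12 for ECs against MNCs and from 1 to 4 for MSCs against MNCs, and 2 to 5 of the exact tests passed. Members whose fold change took either sign or reached 0 ran, on the log2 scale, between genotypes, for Vegfa from -0.28 to 1.23 in ECs, -0.18 to 0.76 in MSCs and -0.58 to 0.33 in MNCs, for Vegfc in ECs from -0.31 to 0.85, for Pgf in MSCs from -0.58 to 0.80, for Flt1 in MNCs from -1.16 to 0.50 and for Nrp2 in ECs from -0.24 to 0.080. Between populations, Vegfb in ECs against MNCs of Flt3 +/+ ran from -0.53 to 1.53, Pgf in the same pair of Flt3 ITD/ITD from -2.69 to 3.08, and in MSCs against MNCs Flt1 of Flt3 +/+ from -0.93 to 0.33 and Flt4 from -2.14 to 0 and, in Flt3 ITD/ITD, from -2.40 to 1.16. For the interaction of ECs and MSCs it was -0.37 to 1.14 (Vegfa), -5.56 to 0.60 (Pgf), -0.72 to 0.70 (Kdr) and -3.19 to 0.24 (Flt4). For the interaction of ECs and MNCs it was -0.29 to 1.22 (Vegfa), -1.998 to 1.01 (Kdr), -0.92 to 0.75 (Flt1) and -2.18 to 0.11 (Flt4). For the interaction of MSCs and MNCs it was -0.23 to 0.72 (Vegfa), -1.73 to 1.28 (Kdr), -0.61 to 2.96 (Flt4) and -0.34 to 0.31 (Nrp1).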
